A study of Rattus norvegicus with 10 samples.

Results

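Whether a calorie restriction (CR) as mild as 10% changes gene expression in rat skeletal muscle was the question of this comparison. It set 2 arrays labelled 10% CR, 1 after 1 week and 1 after 1 month, against the 2 control arrays of the same durations, so that it used 4 of the 10 arrays of the series. The other 6 arrays, at 5%, 20% and 30% CR for the same 2 durations, lent the estimate of spread and served to show where 10% CR differed from its neighbours. All animals were male Wistar rats, an outbred strain, bought at 5 weeks and started on the feeding scheme at 6 weeks of age. Control rats received the whole of a daily intake that had been recorded in freely fed rats on a purified powdered diet, and 10% CR rats received that intake less 10%. Every group, control included, was fasted for 16 hours before the gastrocnemius, a calf muscle rich in fast fibres, was taken. RNA of 5 rats was pooled for each group and put on 1 Affymetrix Rat Genome 230 2.0 array, so a group is a single pool and no value below carries the spread between rats. The rats were young and still growing.

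A value is the MAS5 signal of a probe set, a brightness in arbitrary units scaled array by array, and a ratio is log2 of the 10% CR signal over the control signal of the same duration. A log2 ratio of 1 is a doubling and -1 a halving. Each gene is given by its brightest probe set among 15521 that passed a filter on low signal. A gene was called when the Benjamini-Hochberg adjusted p of limma over all 15521 probe sets was under 0.05, and the estimate it prints is the mean of the 1-week and the 1-month log2 ratio with its standard error (SE). The spread in that fit came from how far the 5 levels departed from parallel at both durations. Its p-values therefore measure the spread between arrays of pooled RNA, not between rats.

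Before any result, a conflict in the labels has to be stated. The title and the restriction label of the 1-week control array and of the 1-week 5% CR array name their groups, but the second line of each description states the feeding of the other. Titles were followed. The paper prints negative 1-week ratios of 5% CR to control in muscle for the genes G0s2, Nmrk2 and Cish. By title these ratios were -0.80, -0.41 and -2.69. Whether the titles or the descriptions state the feeding correctly was not tested. With both arrays exchanged, limma called 0 of the probe sets in 10% CR against control, so every call against control rests on the titles being right. The calls against 20% CR and between durations were lost too, and 1 higher and 1 lower remained against 30% CR. All these calls also rest on the variance model, since limma without a trend of variance on signal called 0 in each contrast. Of the 4 arrays, 2 stood apart on a quality measure. The 3′ to 5′ signal ratio of the Gapdh control probes lay between 1.038 and 1.079 on all 4, but that of actin was 1.699 on the 1-week control array against 1.39 to 1.444 on the other 3. On the 6 arrays of the other levels the actin ratio ran from 1.235 to 1.605. The spiked hybridization controls had a mean signal of 737.7 on the 1-month 10% CR array against 985.5 to 1066.7 on the other 3 of the 4. The remaining 1-month restricted arrays had 575.6 to 783.3. The part of these values in the results was not tested. The tissue label held: all 12 skeletal muscle markers on the list were measured, and 0 of 6 liver markers passed the filter.

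Several of the genes described belong to the circadian clock. In that loop BMAL1 and CLOCK bind E-box sequences and switch on the PER, CRY and NR1D genes, PER and CRY proteins then inhibit BMAL1 and CLOCK, NR1D1 and NR1D2 repress Bmal1 through ROR elements, and the output factors DBP, TEF and HLF act on D-box sequences that NFIL3 represses. Muscle keeps such a clock of its own, and the hour of feeding is known as one of the cues that set it. Restriction is also known to act on muscle through growth hormone and insulin signalling, through fat handling and through the fuel switch of fasting. Gene lists for each of these were read below. They were chosen with earlier results of these data known.

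At 10% CR, 41 probe sets were called higher than control (0.264% of those tested) and 21 lower (0.135%), 62 in all (0.399%). At an unadjusted p under 0.05 there were 1453, and 5% of those tested is 776. All 62 had the same sign at 1 week and at 1 month. The test favours this, since its estimate is the mean of both ratios and a difference between them adds to the spread. They held 48 probe sets with a single gene and 42 different genes. By the brightest probe set of each gene, 26 of 9170 genes were higher (0.284%), by 0.51 to 2.31 on the log2 scale, and 11 were lower (0.12%), between -0.54 and -2.15. These counts lean on particular arrays: limma called 1 higher and 1 lower without the 1-week control array, 9 and 9 without the 1-week 10% CR array, 33 and 3 without the 1-month control array, and 0 and 0 without the 1-month 10% CR array. Of the 37 genes, 2 stayed called without the 1-week control array, 6 without the 1-week 10% CR array, 12 without the 1-month control array and 0 without the 1-month 10% CR array, while 28 to 37 stayed called without any single array of the other levels. The arrays whose removal left the fewest calls are those that stood apart in actin ratio and in spike signal. At 1 month, though, the spike signal of the 10% CR array, 737.7, lay within the range of the other restricted arrays, 575.6 to 783.3. Leaving out any array of 10% CR or control also left only 1 duration for the estimate. The part of array quality in these counts was not tested.

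A further 5 genes were called by another probe set only, while their brightest missed the threshold. Dyrk2, a protein kinase gene, was called lower by 3 of its 4 probe sets, the brightest of them going from 893.6 to 459.1 at 1 week and from 491.2 to 223.0 at 1 month (-1.05 ± 0.13, adjusted p = 0.00837), and its uncalled probe set had ratios of -0.44 and -1.58. Maf, a large MAF transcription factor, was called lower by 1 of 3 probe sets (167.0 to 80.1 and 155.6 to 68.0, -1.13 ± 0.16, adjusted p = 0.0158). Art1, an ADP-ribosyltransferase of muscle, was called higher by 1 of 2 (0.51 ± 0.09, adjusted p = 0.0459), and the brighter had an adjusted p of 0.0551. The probe sets of Med25 disagreed, since the called one was dim (11.9 to 35.3 and 14.6 to 36.4, adjusted p = 0.0459) and the brighter had ratios of 0.02 and -0.02. Pdk4 is given with its list. Counts over lists use the brightest probe set. Each is to be read against the shares of all 9170 genes, 0.284% called higher and 0.12% called lower. Counts of list genes at an unadjusted limma p under 0.05 are to be read against 906 of all 9170 genes.

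**Figure D1:**
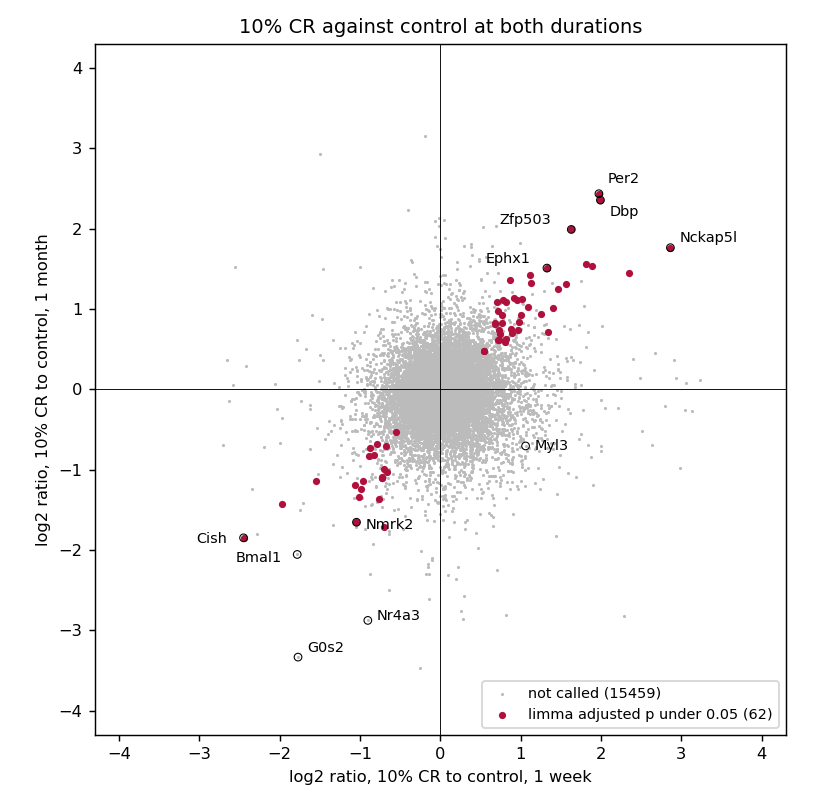
Log2 ratio of 10% CR to control at 1 week (x axis) and at 1 month (y axis), with 1 point for each of the 15521 probe sets tested. The 62 called by limma (red) all lie where both ratios share a sign, which a test on the mean of both ratios favours. The cloud of uncalled probe sets (grey) is nearly round (Pearson r 0.086).

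Size and agreement between durations can be read without a test. At 1 week 277 probe sets were at least 2-fold higher and 122 at least 2-fold lower, and at 1 month 154 and 267. Both durations together left 22 that were 2-fold higher at each (0.142%) and 19 that were 2-fold lower at each (0.122%), in 19 and 13 genes. Of these 41, 21 were also called by limma. Of the 399 probe sets past 2-fold at 1 week, 206 (51.6%) kept their sign at 1 month, and of the 421 past 2-fold at 1 month, 238 (56.5%) had the same sign at 1 week. Over all tested probe sets the sign was shared by 8079 (52.1%), Pearson's r between the durations was 0.086 and Spearman's rho 0.068, across probe sets that are not independent of each other. Agreement differed with brightness: with probe sets split evenly by signal into 4 classes, r was 0.034 in the dimmest, then 0.105 and 0.242, and 0.218 in the brightest. Ratios of both durations had similar widths, with SDs of 0.392 and 0.402. A small set of 2-fold ratios was thus seen at both durations, among many seen at 1 duration alone.

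The clock genes headed that set. Per2, a core repressor of the loop, had signals of 37.1 (control) and 145.7 (10% CR) at 1 week and of 42.0 and 227.2 at 1 month. The 10% CR arrays were above both controls by a wide margin at each duration. Its estimate was 2.21 ± 0.24 (SE), a 4.61-fold difference, with a limma adjusted p of 0.00673. Dbp, the output factor of the D-box arm, rose from 83.7 to 333.1 at 1 week and from 58.6 to 300.0 at 1 month (2.17 ± 0.26, adjusted p = 0.00768). Bhlhe41, a repressor that competes at E-boxes, rose from 625.2 to 1263.6 and from 506.4 to 1103.6 (1.07 ± 0.11, adjusted p = 0.00673). For both genes the lower 10% CR array exceeded the higher control array. The share of all probe sets so separated was not counted, and the calls used the same arrays.

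Nr1d2, a nuclear receptor that represses Bmal1, rose from 710.7 to 1210.7 at 1 week and from 537.3 to 1016.8 at 1 month (0.84 ± 0.14, adjusted p = 0.0199). All 3 of its probe sets were called higher. Cry1, the partner of PER in repression, fell: its signal was 209.2 and 208.6 on the control arrays against 112.8 and 117.1 at 10% CR (-0.86 ± 0.15, adjusted p = 0.038). The list of the PER, CRY and D-box arm thus held 4 genes called higher and 1 called lower among 14 tested. The shares of all genes were 0.284% and 0.12%. The list's medians were 0.56 at 1 week and 0.38 at 1 month, where the medians of all genes were 0.01 and -0.01. Per2 and Cry1, both repressors, moved in opposite directions. Tef had log2 ratios of 0.70 and 0.69 and just missed the threshold (adjusted p = 0.0533). Per1 (0.23 and 0.87), Per3 (0.54 and 0.14), Hlf (-0.01 and 0.22), Bhlhe40 (0.59 and -0.03) and Cry2 (-0.35 and 0.53) were not called.

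The BMAL1 arm lay on the other side. Bmal1 itself had signals of 121.7 and 133.4 on the control arrays against 35.4 and 32.1 on the 10% CR arrays, log2 ratios of -1.78 and -2.06. The groups were far apart, but the ratios of the other levels to control differed between 1 week and 1 month. They were -1.79 and -2.60 at 5% CR, -3.38 and -2.06 at 20% CR and -3.28 and -1.49 at 30% CR. The SE of Bmal1 was 0.51 and limma did not call it (-1.92, unadjusted p = 0.00305, adjusted p = 0.196). Nfil3, the repressor at D-boxes, was at 179.9 and 240.9 in control against 71.5 and 74.6 (-1.51 ± 0.32, adjusted p = 0.0796). Clock was at 390.3 and 323.2 against 232.6 and 235.1 (-0.60 ± 0.12, adjusted p = 0.0765). Its dimmer probe sets had ratios of -0.781 and -0.254, of -0.316 and -0.185 and of 0.251 and -0.814, and were not called. Rora, an activator of Bmal1, had ratios of 0.10 and 0.46. An unadjusted limma p under 0.05 was held by 906 of all 9170 genes. All 4 tested genes of the arm had one and 0 passed the adjustment, with list medians of -1.04 and -1.08. With the 1-week control and 5% CR arrays exchanged, the 1-week medians were -0.08 for this arm and 0.09 for the PER, CRY and D-box arm, while the 1-month medians are the same by construction.

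**Figure D2:**
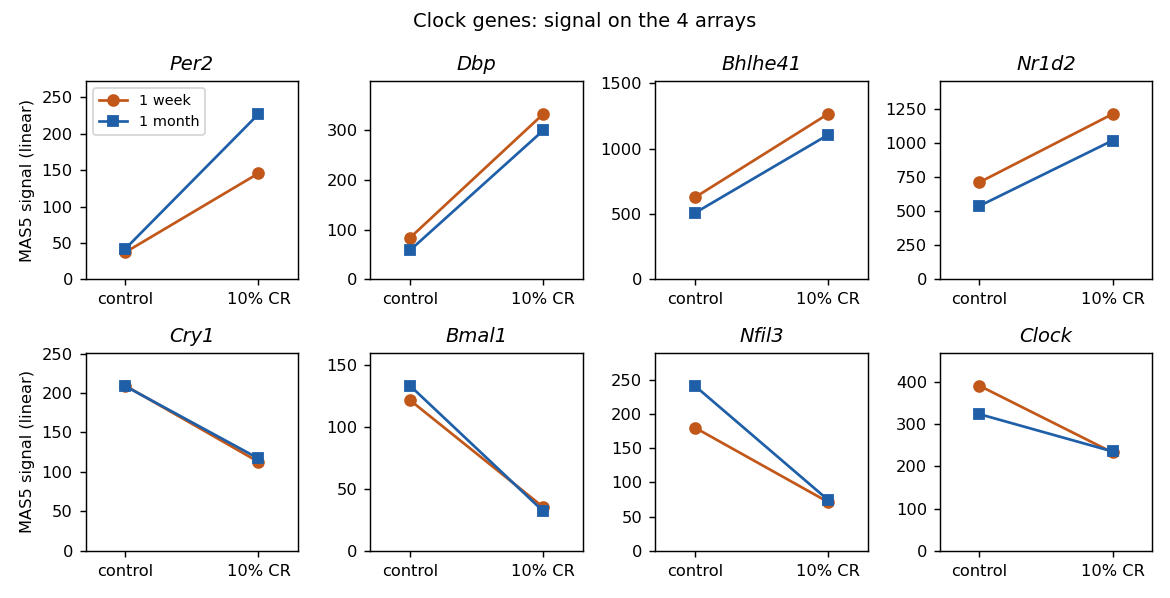
MAS5 signal (linear, axis from 0) of 8 clock genes on the 4 arrays, with 1 line for each duration from control to 10% CR and 1 point for each array. Per2, Dbp, Bhlhe41 and Nr1d2 are higher at 10% CR at both durations, and Cry1, Bmal1, Nfil3 and Clock are lower, the last 3 without passing the adjusted threshold.

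Per2 and Bhlhe41 were called higher than control, and Bmal1 and Nr1d1 were not called. The promoters of these 4 clock genes are shown, chosen among the clock genes that held a searched motif. Each is the 250 bases before the gene's start in RefSeq, build GRCr8, written 5′ to 3′ on the gene's own strand, with the motif in capitals: the D-box TTATGTAA in Per2 (chr9:99496994-99497243, minus strand, motif 192 bases before the start), the ROR element TAGGTCA in Bmal1 (chr1:176766078-176766327, plus strand, 16 bases before), and the E-box CACGTG in Bhlhe41 (chr4:180569356-180569605, minus strand, 48 bases before) and in Nr1d1 (chr10:84229455-84229704, minus strand, 191 bases before, at 1 of its listed starts).
Per2: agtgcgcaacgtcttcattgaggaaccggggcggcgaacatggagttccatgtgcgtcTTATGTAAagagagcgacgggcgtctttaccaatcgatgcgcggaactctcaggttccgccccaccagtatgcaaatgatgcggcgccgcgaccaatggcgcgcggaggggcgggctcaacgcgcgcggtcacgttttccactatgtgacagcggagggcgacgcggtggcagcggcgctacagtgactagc
Bmal1: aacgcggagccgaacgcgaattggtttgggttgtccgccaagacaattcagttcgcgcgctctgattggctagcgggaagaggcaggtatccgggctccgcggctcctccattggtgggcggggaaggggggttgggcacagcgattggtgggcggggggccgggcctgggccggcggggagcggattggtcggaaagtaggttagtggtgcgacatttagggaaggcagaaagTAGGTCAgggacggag
Bhlhe41: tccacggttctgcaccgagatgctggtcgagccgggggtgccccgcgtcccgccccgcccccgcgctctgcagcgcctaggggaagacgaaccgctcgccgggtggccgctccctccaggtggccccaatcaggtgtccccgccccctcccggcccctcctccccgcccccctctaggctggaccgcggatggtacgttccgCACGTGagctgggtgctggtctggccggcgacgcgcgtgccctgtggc
Nr1d1: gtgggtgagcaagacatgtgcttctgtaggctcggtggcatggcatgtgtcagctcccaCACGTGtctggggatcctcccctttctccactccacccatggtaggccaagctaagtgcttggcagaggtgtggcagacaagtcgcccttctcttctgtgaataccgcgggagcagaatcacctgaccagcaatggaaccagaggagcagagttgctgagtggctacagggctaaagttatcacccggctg
Searched on both strands over the same length, CACGTG was found in 1872 of 33469 promoters (5.59%), TTATGTAA in 277 (0.828%) and TAGGTCA in 755 (2.26%). Among 15 tested clock genes with a promoter in the table, 4 held CACGTG (Bhlhe40, Bhlhe41, Nr1d1 and Tef), 1 held TTATGTAA (Per2) and 1 TAGGTCA (Bmal1). Of 30 called genes with a promoter, 3 held CACGTG (Bhlhe41, Fgfrl1 and Slc41a3), 1 TTATGTAA and 0 TAGGTCA. All promoters were counted by listed start, but clock and called genes by gene, with a match at any of its listed starts. The counts are therefore not like for like. A match describes letters in this window only.

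Growth hormone and insulin signalling held 2 called genes, in opposite directions. Cish, an inhibitor that cytokine and growth hormone receptors induce through STAT5, had signals of 177.6 and 176.1 in control against 32.5 and 48.9 at 10% CR. Both restricted arrays lay far below both controls, and the gene was called lower by 4.44-fold (-2.15 ± 0.37, adjusted p = 0.0307). Its other probe set had ratios of -2.29 and -1.80. Socs2, a relative of Cish with the same inducer, was at 31.3 and 34.7 against 17.5 and 19.4, close to the dim end of the arrays, and was not called (-0.84 ± 0.28, adjusted p = 0.365). The gene of a PI3-kinase inhibitor, Pik3ip1, moved the other way and was called higher: 151.2 to 416.7 at 1 week and 204.6 to 484.5 at 1 month (1.35 ± 0.15, adjusted p = 0.00715).

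Of the 21 tested genes of that list, 1 was called higher and 1 lower, where the shares of all genes were 0.284% and 0.12%. The list's medians of 0.03 and -0.09 stood near those of all genes. Igfbp5 had ratios of -0.71 and -0.55 (adjusted p = 0.172) and Grb10, an adaptor that restrains the insulin receptor, -0.33 and -0.64 (adjusted p = 0.0947). Igf1 had ratios of 0.10 and -0.59 and Irs2 of 0.48 and -0.49, with opposite signs at the 2 durations. Among 18 genes of FOXO signalling, ubiquitin ligases of atrophy and autophagy, 0 were called by limma and 3 had an unadjusted p under 0.05. Their medians were 0.15 and 0.17, with 12 genes above 0 at 1 week and 15 at 1 month. Of all 9170 genes, 4724 and 4419 lay above 0. The ligases Fbxo32 (0.45 and 0.21) and Trim63 (-0.22 and 0.13) and the factor Foxo3 (0.28 and 0.51) were all below a doubling.

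Fat handling held one of the widest separations at 1 month. G0s2, the inhibitor of the triglyceride lipase ATGL, had signals of 437.5 and 128.1 at 1 week and of 1055.2 and 104.7 at 1 month. The 10% CR arrays were both far below both controls, although the controls themselves differed. It missed the threshold narrowly (-2.55 ± 0.48, a 5.87-fold difference, adjusted p = 0.0504). Its target Pnpla2, which encodes ATGL, had ratios of 0.39 and 0.37 (adjusted p = 0.32). Dgat2, which catalyses the last step of triglyceride synthesis, was called higher: 130.4 to 311.8 and 163.6 to 313.7 (1.10 ± 0.15, adjusted p = 0.0142), and so was its second probe set. Mid1ip1, a regulator of acetyl-CoA carboxylase, was also called (0.67 ± 0.11, adjusted p = 0.0199), as was Nudt7, a hydrolase of peroxisomal coenzyme A (0.85 ± 0.13, adjusted p = 0.0188).

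Dgat2 was the only one called of the 16 tested genes for fatty acid and triglyceride synthesis, and their medians were 0.17 and -0.08. The list pointed both ways: Srebf1, a master activator of lipid synthesis, was at 549.8 and 798.8 in control against 316.6 and 344.3 (ratios -0.80 and -1.21, adjusted p = 0.0771), and fatty acid synthase, Fasn, had ratios of -0.93 and -0.74 (adjusted p = 0.374). Thrsp, a lipogenic gene, and Scd, a desaturase, had large ratios at 1 week (2.05 and 1.32) and ratios of -0.23 and -0.07 at 1 month, and neither was called. Among 25 genes of fatty acid uptake and beta-oxidation 0 were called by limma and 3 had an unadjusted p under 0.05. Above 0 were 23 at 1 week and 11 at 1 month, where all 9170 genes had 4724 and 4419. Cd36, the fatty acid transporter, had ratios of 0.83 and 0.42 (adjusted p = 0.0781). Among 12 PPAR targets and fuel switch genes 0 were called and 3 had an unadjusted p under 0.05, among them Mlycd, which removes malonyl-CoA (0.66 and 0.49, adjusted p = 0.0755). Pdk4, the brake on pyruvate oxidation, had ratios of 0.62 and 0.27 by its brightest probe set (adjusted p = 0.108). Its other probe set was called higher, from 935.6 to 1719.0 at 1 week and from 917.5 to 1548.7 at 1 month (0.82 ± 0.14, adjusted p = 0.0285). Cholesterol synthesis had 0 of 14 genes called and 4 with an unadjusted p under 0.05, with medians of -0.22 and -0.14.

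Enzymes that handle foreign compounds held 3 called genes of 18, all higher, where 0.284% of all genes were called higher. Ephx1, microsomal epoxide hydrolase, rose from 39.7 to 99.6 at 1 week and from 38.1 to 108.5 at 1 month (1.42 ± 0.18, adjusted p = 0.00923). Sult1a1, a phenol sulfotransferase, rose from 129.3 to 236.8 and from 133.6 to 343.3 (1.12 ± 0.16, adjusted p = 0.0142). Fmo2, a flavin monooxygenase, rose from 29.5 to 78.3 and from 32.7 to 66.2 (1.21 ± 0.18, adjusted p = 0.0167), but its other 2 probe sets were not called, with ratios of 0.50 and 0.98 and of 1.41 and 0.20. In none of the 3 did the control and restricted arrays overlap. That is no further support, because the call used the same arrays and the share of all probe sets so separated was not counted.

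Further members lay on the same side without passing. Akr1c14, a hydroxysteroid dehydrogenase, was at 71.7 and 24.6 in control against 158.0 and 56.1 (1.17 ± 0.26, adjusted p = 0.108), so that the controls differed from each other more than either pair did. Gsta1, a glutathione transferase, had ratios of 0.66 and 0.69 (adjusted p = 0.0959) and Fmo1 of 0.76 and 0.65 (adjusted p = 0.165). The list medians were 0.28 and 0.30, with 11 genes above 0 at 1 week and 16 at 1 month, 10 of them at both. Over all 9170 genes these counts were 4724, 4419 and 2369. Antioxidant enzymes, a related list of 20, had medians of -0.01 and 0.03, 0 genes called by limma and 1 with an unadjusted p under 0.05. Their largest ratios were those of Srxn1, sulfiredoxin, at 1.35 and 0.64 (adjusted p = 0.233).

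Nmrk2, a muscle kinase that makes nicotinamide mononucleotide for NAD, was among the brightest of the lower genes: 1264.3 to 613.0 at 1 week and 1273.4 to 404.6 at 1 month (-1.35 ± 0.21, adjusted p = 0.0199). It was the only one called of 8 NAD salvage genes, and Nampt, the rate-limiting enzyme of that route, had ratios of 0.12 and 0.61 by its brightest probe set (adjusted p = 0.546) and of 0.49 and 0.55 by the other (adjusted p = 0.0755). Nmrk2 is also on the list of 13 stretch response genes, where Fhl3, a LIM-domain protein of muscle, was called higher: 1610.3 to 2686.3 and 2022.4 to 3267.6 (0.71 ± 0.10, adjusted p = 0.0149). Phlda3, an inhibitor of AKT and a p53 target, was called higher as well, from 188.8 to 378.4 and from 234.8 to 446.6 (0.96 ± 0.14, adjusted p = 0.0163), the only one called of 7 p53 targets. Cdkn1a, the classical target in that list, had ratios of 0.89 and -0.91.

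Outside the lists, the zinc finger gene Zfp503 was called higher, at 162.3 and 153.4 in control against 502.2 and 609.8 (1.81 ± 0.21, adjusted p = 0.00715). A second probe set was also called (1.81 and 1.56), and a dim one was not, with a ratio of -0.02 at 1 month. Nckap5l had the largest estimate of all called genes, 2.31 ± 0.35 (adjusted p = 0.0167), from signals of 13.5 to 98.3 and 12.1 to 41.1. It is uncertain, because its control signals were below the mean signal of 17.84 that the filter required and its other probe set had ratios of 0.09 and -2.31. Fgfrl1, a decoy receptor of fibroblast growth factors (11.6 to 59.0 and 12.4 to 33.9, adjusted p = 0.0467), and Ppl, periplakin (8.1 to 30.1 and 13.9 to 40.3, adjusted p = 0.0436), were likewise called from dim control signals.

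The remaining genes among the 14 with the largest agreed positive ratio were not called. They were Stk35 (1.75 and 1.35, adjusted p = 0.0627), the interleukin 6 receptor gene Il6r (1.29 and 1.23, adjusted p = 0.0808), Foxp2 (1.79 and 1.04), Zfpm2 (1.02 and 1.06) and Mn1 (1.02 and 1.08). The agreed size of a gene is the smaller of its 2 ratios where they share a sign. Signals of Foxp2 and Zfpm2 stayed at or below 31.2 on all 4 arrays, while Mn1 was at 187.0 and 202.0 in control against 379.5 and 426.8.

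On the lower side, Slc41a3, a magnesium transporter of the SLC41 family, was called (570.1 to 282.6 and 481.5 to 190.0, adjusted p = 0.0133), and so was Pwwp3b (162.9 to 82.4 and 148.1 to 62.8, adjusted p = 0.0167). The other genes with a large agreed negative ratio were not. Among them were Nr4a3, an activity-induced nuclear receptor (63.6 to 34.0 and 134.3 to 18.3, adjusted p = 0.329), and Atf3, a stress-induced factor (100.3 to 39.7 and 90.6 to 47.7, adjusted p = 0.196). Hap1 (-2.34 and -1.24), Tmem135 (-1.03 and -1.10), Nusap1 (-0.98 and -1.36) and Dusp8 (-1.23 and -0.97) came from signals of at most 38.4 on each of the 4 arrays. Nr4a3 and Atf3 belong to the 13 tested immediate-early and NR4A genes, whose medians were -0.14 and -0.30, with 0 called by limma and 3 at an unadjusted p under 0.05. Fos had ratios of -0.66 and -1.24 in that list.

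The other genes called by their brightest probe set are given by their estimates. Higher were the glucocorticoid-responsive factor Klf9 (0.51 ± 0.09), the deubiquitinase Usp2 (0.85 ± 0.15), the xanthine dehydrogenase gene Xdh (0.73 ± 0.12), the muscle cytokine gene Il15 (0.75 ± 0.12), the glutamine transporter gene Slc38a3 (1.03 ± 0.18), Cdc14a (0.80 ± 0.11), Crim1 (0.75 ± 0.12), Adgrf5 (0.70 ± 0.11) and Syncrip-ps2 (0.95 ± 0.14), a pseudogene whose probe set may share signal with its parent. Lower were the phosphodiesterase gene Pde4b (-1.21 ± 0.22), Rig1 (-0.92 ± 0.17), the sialyltransferase gene St3gal1 (-0.80 ± 0.13), Akirin1 (-0.74 ± 0.13) and the phosphatase subunit gene Ppp2r5a (-0.54 ± 0.10). Their limma adjusted p-values ran from 0.0137 for Cdc14a to 0.0489 for Rig1. Dimmer probe sets of Adgrf5 were not called, with ratios of 0.44 and 0.55 and of 0.03 and 0.55. Around the 2-fold line, the members just inside at their weaker duration were Slc41a3 (-1.01), Bhlhe41 (1.02), Fmo2 (1.02) and Tmem135 (-1.03), and those just outside were Pwwp3b (-0.98), Nusap1 (-0.98), Ift70a1 (0.96) and Ccdc102a (0.95).

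The 2 durations parted most clearly in the genes of slow fibres. Myl3, the slow essential light chain, had signals of 419.0 in control and 873.9 at 10% CR at 1 week, and of 1497.9 and 919.4 at 1 month. The 10% CR arrays were alike, and the 1-month control signal was over 3 times that of the 1-week control. Its ratio moved from 1.06 to -0.70, a difference of -1.76 ± 0.17 (1 month minus 1 week, limma adjusted p = 0.0309). Myl2, the slow regulatory light chain, went from 691.7 to 1446.2 at 1 week and from 1866.0 to 1415.4 at 1 month, a difference of -1.46 ± 0.16 (adjusted p = 0.0417). Myoz2, a Z-disc protein of slow fibres, went from 528.2 to 1123.8 and from 1188.5 to 969.1 (-1.38 ± 0.16, adjusted p = 0.0476). In each of these genes the 1-week control array was the lowest of all 10 arrays.

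Over all probe sets, 5 had a ratio that was lower at 1 month than at 1 week (0.0322%) and 0 a ratio that was higher (0%), with 1062 at an unadjusted p under 0.05. The remaining genes were Ankrd2, a stretch-induced ankyrin repeat protein (111.6 to 279.2 and 318.3 to 207.8, -1.94 ± 0.23, adjusted p = 0.0476), and Ndufa5, a subunit of respiratory complex I (948.8 to 2249.9 and 2027.7 to 1570.8, -1.61 ± 0.18, adjusted p = 0.0417). The spread in this fit came from 2 residual degrees of freedom. With the 1-week control and 5% CR arrays exchanged, 0 were called, and the differences of Myl3, Myl2, Myoz2 and Ankrd2 became 0.07, 0.39, 0.37 and 0.16, while that of Ndufa5 was -1.16.

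All 12 tested slow fibre genes lay above 0 at 1 week and all 12 below 0 at 1 month, with medians of 0.94 and -0.39. Of all 9170 genes, 4724 lay above 0 at 1 week and 4419 at 1 month. None of the 12 was called in 10% CR against control by limma, and 0 had an unadjusted p under 0.05. Their summed signal was 10298.7 in control and 15061.8 at 10% CR at 1 week, and 17250.0 and 14290.8 at 1 month. The other restricted arrays held 22239.2 to 26464.0 at 1 week, so the 10% CR array stood between control and them. Under the exchange the 1-week median was -0.78. Myh7, the slow myosin heavy chain, had ratios of 1.26 and -0.20, and Tnnt1, slow troponin T, 0.80 and -0.81. In whole muscle, a different share of slow fibres and a different amount of RNA for these genes in each fibre cannot be told apart.

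**Figure D3:**
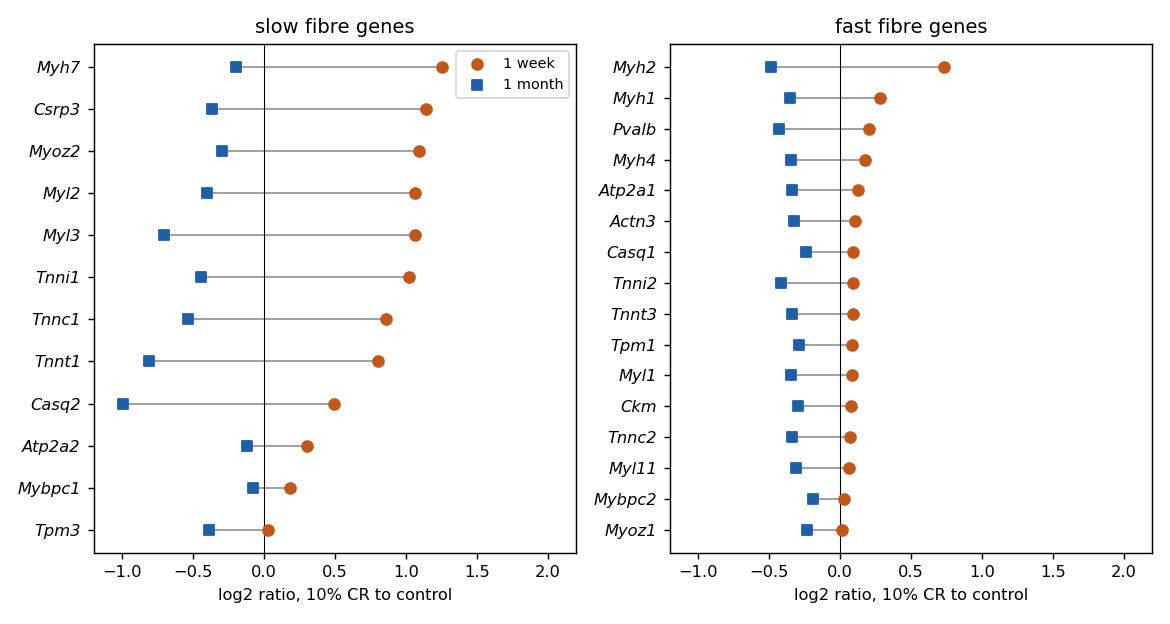
Log2 ratio of 10% CR to control at 1 week (circles) and 1 month (squares) for 12 slow fibre genes and 16 fast fibre genes, each line joining the 2 ratios of a gene. Every gene lies above 0 at 1 week and below 0 at 1 month, with medians of 0.94 and -0.39 in slow fibre genes and of 0.09 and -0.34 in fast fibre genes, where both became -0.01 after quantile normalization.

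Fast fibre genes followed in the same order but with smaller ratios. All 16 were above 0 at 1 week and below 0 at 1 month, with medians of 0.09 and -0.34, which became -0.01 at both durations after quantile normalization and 0.02 and -0.13 after cyclic loess. Myh4, the main heavy chain of this muscle, was at 9147.6 and 9447.5 in control against 10343.1 and 7418.5. These are among the brightest probe sets, and the brightest 2% of all had medians of 0.05 and -0.18. Quantile normalization evens out a shift of bright probe sets whatever its source, and the source was not tested. Medians were also smaller in size after it for 30 respiratory chain subunits (0.10 and -0.22, and 0.07 and -0.08 after quantile normalization). So were those of 18 genes of glucose uptake and glycolysis (0.11 and -0.27, and 0.00 at both after quantile normalization). Limma called 0 genes of these 3 lists, and 0, 0 and 1 had an unadjusted p under 0.05. Slow fibre medians, by contrast, were 0.99 and -0.38 after quantile normalization.

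The genes with the largest opposite ratios were dim and were not called in the test between durations. Higher at 1 month were Trmu (-1.49 and 2.93, adjusted p = 0.123), Higd1b (-1.67 and 0.50), Shank3 (-0.60 and 1.36), Icmt (-1.34 and 0.61), Proser3 (-0.69 and 1.23) and Chrne, the adult subunit of the muscle acetylcholine receptor (-0.52 and 1.37). Higher at 1 week were Lamb3 (0.70 and -2.25), Ift80 (1.68 and -1.10), Cacna1a (2.01 and -0.77), Begain (1.59 and -1.04), Thbs2 (1.84 and -0.69) and Cd300c2 (0.65 and -1.70). Past 2-fold with opposite signs were 16 probe sets, 12 higher at 1 week and 4 higher at 1 month.

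Markers of cell types other than muscle fibres mostly had positive ratios at 1 week. Of 10 fibroblast markers, 10 were above 0 at 1 week and 6 at 1 month (medians 0.42 and 0.05). The counts for all 9170 genes were 4724 and 4419. Summed signal of the fibroblast markers was 7627.1 and 9439.4 at 1 week and 7123.9 and 7188.2 at 1 month. Macrophage markers, 13 tested, had medians of 0.25 and 0.22, led by Cd163 (13.3 to 46.9 and 23.7 to 34.1, adjusted p = 0.189). Schwann cell and nerve markers had medians of 0.43 and 0.41 over 4 genes, adipocyte markers 0.55 and 0.09 over 4, and smooth muscle and pericyte markers 0.06 and 0.01 over 10. With the 1-week control and 5% CR arrays exchanged, the 1-week medians were 0.06 for fibroblast, 0.04 for macrophage, 0.33 for Schwann cell and nerve, 0.37 for adipocyte and -0.08 for smooth muscle and pericyte markers. Limma called 0 genes of these lists, with 5, 1, 2, 2 and 0 at an unadjusted p under 0.05 in that order. Of all 9170 genes, 906 had such a p. Lep, the leptin gene, and Plin1 did not pass the filter, and the summed signal of the 4 adipocyte markers was 856.0 and 1240.0 at 1 week and 748.9 and 901.7 at 1 month. What these cells contribute to Dgat2, Fmo2 and Cd36, which they also express, was not tested.

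Endothelial markers held 1 called gene of 14. Tmem100, a membrane protein induced by BMP signals, fell from 309.1 to 174.2 and from 274.1 to 156.2 (-0.82 ± 0.14, adjusted p = 0.0285). Apln, the apelin gene, had ratios of -1.16 and -1.04 (adjusted p = 0.134), but its dimmer probe set had 0.37 and -0.83 (adjusted p = 0.918). The list as a whole did not follow Tmem100: its medians were 0.36 and -0.09, the first of them -0.12 under the exchange, and its defining marker Pecam1 had ratios of 0.50 and -0.25. Kdr, a receptor of vascular endothelial growth factor, had ratios of -0.32 and -0.82.

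Lists for other functions held no call. They were heat shock proteins (21 genes, medians -0.09 and -0.26), the endoplasmic reticulum stress response (20, -0.05 and 0.03), proteasome subunits (24, -0.01 and 0.02), cytosolic ribosomal proteins (16, -0.01 and -0.13), collagens and matrix (20, 0.10 and -0.01), interferon and antigen presentation (17, -0.05 and -0.02), and actin, tropomyosin and tubulin (14, -0.02 and -0.39). At an unadjusted p under 0.05 these lists had 2, 2, 1, 0, 2, 1 and 6 genes, where all 9170 genes had 906. The list of actin, tropomyosin and tubulin was lower at 1 month in 12 of 14 genes, among them Tubb6 (-0.82), Actg1 (-0.66) and Tubb2a (-0.63). Of all 9170 genes, 4419 lay above 0 at 1 month. Among 18 mTORC1 brakes and glucocorticoid targets, Fkbp5 had ratios of 0.47 and 0.73 (adjusted p = 0.108) and Glul, glutamine synthetase, 0.26 and 0.68 (adjusted p = 0.237).

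**Figure D4:**
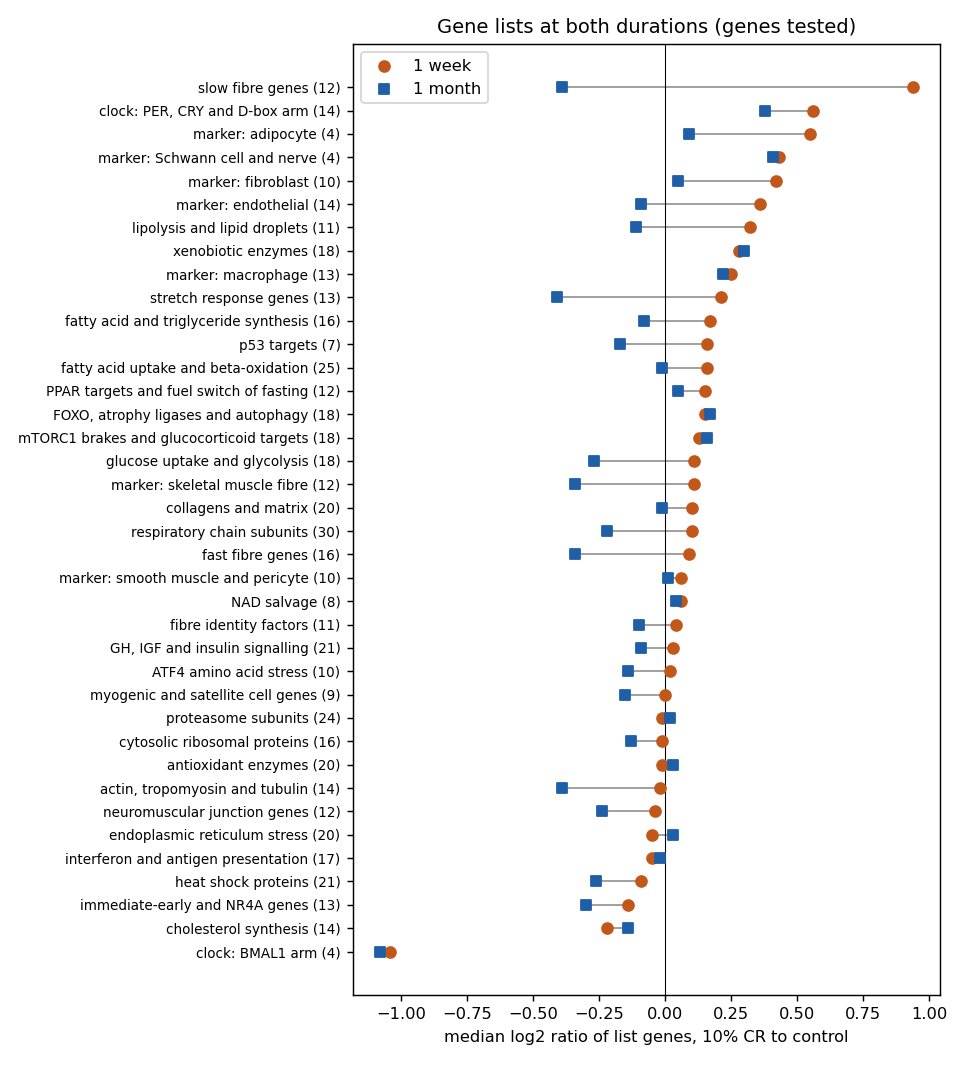
Median log2 ratio of 10% CR to control over the tested genes of 38 lists at 1 week (circles) and 1 month (squares), with the number of genes in brackets. The PER, CRY and D-box arm (0.56 and 0.38) and xenobiotic enzymes (0.28 and 0.30) lie to the right at both durations, the BMAL1 arm (-1.04 and -1.08) to the left, and slow fibre genes change side (0.94 and -0.39), while the 1-month medians of fast fibre, glycolysis and skeletal muscle fibre genes moved to between -0.01 and 0.00 after quantile normalization.

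Whether anything was particular to 10% CR was read from contrasts with the other restricted arrays. Their estimates use no control array, but their spread comes from the fit to all 10 arrays, controls included. Against 5% CR limma called 0 probe sets (0%), with 411 at an unadjusted p under 0.05. Against the mean of 5%, 20% and 30% CR it also called 0 (0%), with 569 at an unadjusted p under 0.05. The 37 called genes had estimates between -0.41 and 1.17 against 5% CR and between -0.39 and 1.05 against the mean of the other levels, and 4 of them had an unadjusted p under 0.05 in each contrast. No gene passed the test that would set 10% CR apart from its neighbours as a whole. A missed threshold does not show that the levels act alike, since the median SE of these contrasts was 0.183 and 0.15.

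Against the higher levels a few genes did separate. Nr1d1, the REV-ERB alpha repressor of Bmal1, had signals of 421.8 and 231.0 at 10% CR, close to the 337.6 and 233.0 of control. At 20% CR it was at 138.4 and 98.7, and 30% CR gave 91.6 and 57.7. It was the only probe set called against 20% CR (1 higher, 0.00644%, and 613 at an unadjusted p under 0.05). It was also called against 30% CR (2.10 ± 0.15, adjusted p = 0.000292). The order of its levels was 5% above 10% above 20% above 30% CR at both durations, with 603.8 and 278.3 at 5% CR. Its estimate of 1.04 against the mean of the other restricted levels had an adjusted p of 0.0529.

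Against 30% CR, 2 probe sets were higher (0.0129%) and 2 lower (0.0129%), 4 in all (0.0258%), with 882 at an unadjusted p under 0.05. Beside Nr1d1, Bhlhe41 was higher (0.94 ± 0.11, adjusted p = 0.013): its signals of 1263.6 and 1103.6 at 10% CR were the highest of each duration, and those at 30% CR were 767.9 and 495.6. Arrdc3, an arrestin-like adaptor, was lower (-1.46 ± 0.13, adjusted p = 0.000858), at 271.1 and 348.4 against 787.5 and 906.0. Sdc4, the cell surface proteoglycan syndecan 4, was lower too (-0.91 ± 0.11, adjusted p = 0.0215), at 173.3 and 257.7 against 312.7 and 502.4. Both stood at 10% CR below control as well, at 356.8 and 429.8 for Arrdc3 and 237.4 and 376.5 for Sdc4, without being called. Among the 37 genes called against control, 8 had an unadjusted p under 0.05 against 20% CR and 16 against 30% CR.

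**Figure D5:**
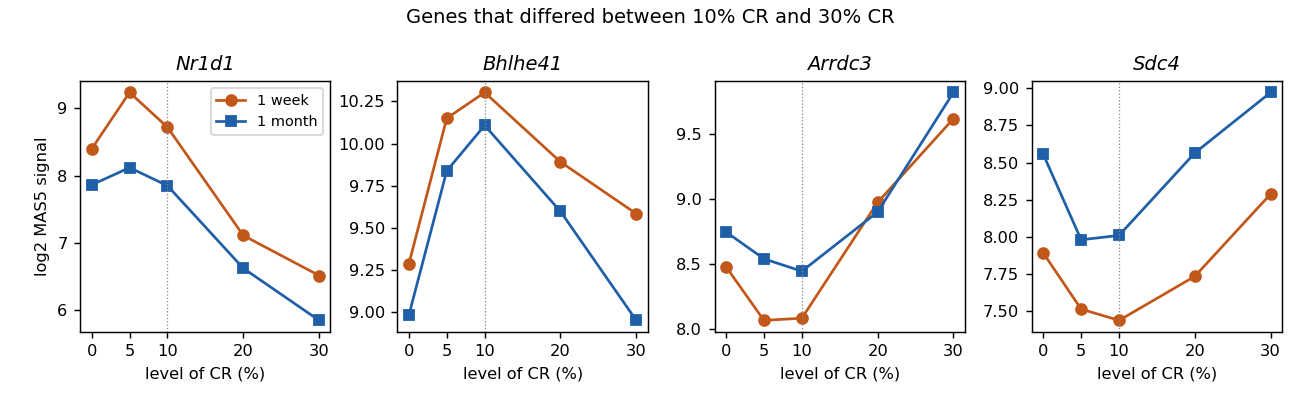
Log2 MAS5 signal at 0 (control), 5, 10, 20 and 30% CR of the 4 genes called in 10% CR against 30% CR, with 1 point for each array and 1 line for each duration (10% CR on the dotted line; the axis does not start at 0). Bhlhe41 peaks at 10% CR at both durations, Nr1d1 falls beyond 5% CR, and Arrdc3 and Sdc4 are lowest at 5 or 10% CR.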

How the data were processed

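Gastrocnemius RNA, pooled by the authors from 5 rats per group, was hybridized to 1 array for each of 10 groups. The authors deposited MAS5 signal (linear intensity, scaled per array) for 31099 probe sets. Trimmed means of that signal ranged from 99.14 to 99.58 on the 1-week and from 85.79 to 86.3 on the 1-month arrays, so ratios were formed within a duration. The number of arrays limits the precision.

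The log2 of the deposited signal was taken here after raising values under 0.1 to 0.1. Affymetrix controls (57) were dropped, and the brighter 50 percent of the rest by mean signal (a limit of 17.84, 15521 probe sets) were tested. Names came from the platform annotation, matched to RefSeq (20832 probe sets with 1 gene, 436 with several, 9831 with none, 20764 matched). In R 4.3.3, limma 3.58.1 (lmFit, eBayes with trend, two-sided, Benjamini-Hochberg at 0.05) fitted level and duration as factors to all 10 arrays (4 residual degrees of freedom, 2 for the difference between durations). Simulated data served to test the code.

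Named genes were the 14 with the largest agreed ratio in each direction, 6 in each direction with opposite ratios, the 4 with the smallest p against the other restricted levels and up to 4 of each list. The other called genes and further list members were named after their values were seen. Of 691 entries in 40 lists, 551 were tested, 74 were under the filter, 65 had no probe set and 1 no gene. Members and lists were chosen with earlier results of these data known. Alternatives were 3 other scalings, 2 filters, a pseudocount of 32, no variance trend, the 4 arrays alone, exchanged arrays, other minimum ratios and each array left out.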

Additional observations from a re-analysis of the deposited data

Results flagged for a closer look

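The ratio of 10% CR to control differed between 1 week and 1 month in 5 genes by limma's test of the difference itself, on 2 residual degrees of freedom. As 1 month minus 1 week on the log2 scale, the differences were -1.94 for Ankrd2, -1.76 for Myl3, -1.61 for Ndufa5, -1.46 for Myl2 and -1.38 for Myoz2. For each of them the 1-week control array was the lowest of all 10. The second description line of that array states restricted feeding, and the part of this conflict in the differences was not tested beyond the exchange of both arrays, after which limma called 0. The difference of Ndufa5 was then -1.16, and those of the other 4 genes were 0.07 to 0.39.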

How the results depend on the processing

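With the 1-week control and 5% CR arrays exchanged, limma called 0 higher and 0 lower in 10% CR against control, 0 higher against 20% CR, 1 higher and 1 lower against 30% CR, 0 in the difference between durations, and 0 list genes higher and 0 lower. The differences of Myl2, Myoz2, Myl3 and Ankrd2 turned to 0.39, 0.37, 0.07 and 0.16, that of Ndufa5 was -1.16, and 2-fold at both durations were 3 higher and 11 lower. Without the variance trend, all counts called were 0, those against 20% and 30% CR included. The 4 arrays alone gave 42 lower. In the difference between durations, quantile normalization called 8 lower, cyclic loess 9, median centring 3, the 70th percentile filter 1 and no filter 0. Against the other restricted levels, median centring and no filter each called 1 higher. Counts past 2-fold at both durations, higher and lower, were 944 and 939 without a filter, 13 and 6 at the 70th percentile, 5 and 7 on log2 of signal plus 32, 232 and 208 at a minimum ratio of 0.5, and 6 and 4 at 1.5. Pearson's r between durations was -0.005 without a filter and 0.215 at the 70th percentile. Leaving out single arrays gave 0 to 55 higher and 0 to 34 lower against control, 0 to 1 and 0 to 0 against 5% CR, 0 to 2 and 0 to 3 against 20% CR, 1 to 3 and 1 to 5 against 30% CR, and 0 to 2 and 0 to 4 against the other restricted levels. The causes were not tested. Of the 37 called genes, 36 stayed called under quantile normalization, 37 under cyclic loess, 36 under median centring, 35 on log2 of signal plus 32, 30 without a filter, 33 at the 70th percentile, where the other 4 were not tested, and 29 in the 4 arrays alone. None changed sign under any alternative run. Duration, which pairs each restricted array with a control array, was a factor of every fit over both durations. No paired analysis was possible beyond it because each group has 1 array. Dim signal limits the 2-fold counts.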

Other observations

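Lists not described above held no gene called at 10% CR by its brightest probe set, apart from the shared entries already named. Over 9 myogenic and satellite cell genes the medians were 0.00 at 1 week and -0.15 at 1 month, and Mymk, the myoblast fusion factor myomaker, had log2 ratios of -0.38 and -1.36 (limma adjusted p = 0.522). Mstn, the growth inhibitor myostatin, had ratios of 0.04 and 0.69 (adjusted p = 0.481). Over 12 neuromuscular junction genes the medians were -0.04 and -0.24, and Chrna1, the receptor's alpha subunit, had ratios of 0.00 and 0.82. Among 11 fibre identity factors, with medians of 0.04 and -0.10, Maf, a large MAF transcription factor, was at 1373.5 and 1271.9 in control against 822.1 and 508.9 at 10% CR by its brightest probe set (-1.03 ± 0.21, adjusted p = 0.0767). Both restricted arrays lay below both controls there. A dimmer probe set of Maf was called lower (-1.13 ± 0.16, adjusted p = 0.0158), and the dimmest had ratios of -0.92 and -0.61 (adjusted p = 0.267). Over 10 genes of the ATF4 amino acid stress response the medians were 0.02 and -0.14, and Asns, asparagine synthetase, had ratios of -0.13 and -1.03 (adjusted p = 0.718). Of the blood markers 2 were tested: Hbb, a globin gene, had ratios of -0.18 at both durations, and Alas2, a haem synthesis enzyme of red cells, 0.65 and -1.07. Their 1-week median of 0.24 was -0.12 with the 1-week control and 5% CR arrays exchanged.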
